A study of Rattus norvegicus with 11 samples.

Results

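The 5 uroplakin genes Upk1a, Upk1b, Upk2, Upk3a and Upk3b were taken by symbol from the 18507 genes of an RNA-seq table of rat bladder, and all 5 were found. The table holds 11 bladder tissues of Sprague-Dawley rats, given as FPKM, that is, sequenced fragments scaled to the exon length of the gene and to the fragments mapped in the sample. At week 4 there were 3 samples with partial bladder outlet obstruction (PBOO, labelled BOO) and 3 normal samples, and at week 5 there were 2 PBOO and 3 normal samples. According to the methods, the animals were adult females, the outlet was narrowed with a suture tied around the bladder neck and urethra, and the controls, labelled normal, had an abdominal incision that was closed again without a tie. The normal columns of week 5 carry the name adult. The study describes the samples as biological replicates, while the labels do not tie them to single rats.

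Uroplakins are the membrane proteins of the asymmetric unit membrane, the rigid plaques that cover the luminal face of the umbrella cells of the urothelium and seal the bladder against urine. Upk1a and Upk1b are tetraspanins, which cross the membrane several times and carry the single-span partners out of the endoplasmic reticulum. Upk1a pairs with Upk2, and Upk1b pairs with Upk3a or with the minor partner Upk3b. Both kinds of pair are packed into fusiform vesicles and brought to the surface as the bladder fills. Uroplakin transcripts are therefore used as marks of terminal urothelial differentiation, while Upk1b and Upk3b are also known from mesothelium.

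The promoter windows of the members are shown because Upk3a moved with Upk1a and Upk1b at week 4 and apart from them at week 5. Whether the windows bear on this was not tested. RefSeq promoters (GRCr8, from 250 bases before to 50 bases after the start of the gene) matched 4 of the 5 genes, all but Upk2. The windows, written 5′ to 3′ on the strand of the gene, are chr1:94997531-94997830 (minus strand) for Upk1a, chr11:75459131-75459430 (plus strand) for Upk1b, chr7:118014540-118014839 (plus strand) for Upk3a and chr12:26274191-26274490 (minus strand) for Upk3b. Capitals mark matches to any of 10 motifs searched on both strands, and no matches overlapped each other.
Upk1a: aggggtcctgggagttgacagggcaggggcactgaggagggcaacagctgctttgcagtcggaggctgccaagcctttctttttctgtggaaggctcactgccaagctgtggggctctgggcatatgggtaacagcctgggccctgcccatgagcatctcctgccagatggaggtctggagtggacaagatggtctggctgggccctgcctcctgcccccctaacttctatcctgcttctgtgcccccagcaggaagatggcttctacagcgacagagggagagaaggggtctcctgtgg
Upk1b: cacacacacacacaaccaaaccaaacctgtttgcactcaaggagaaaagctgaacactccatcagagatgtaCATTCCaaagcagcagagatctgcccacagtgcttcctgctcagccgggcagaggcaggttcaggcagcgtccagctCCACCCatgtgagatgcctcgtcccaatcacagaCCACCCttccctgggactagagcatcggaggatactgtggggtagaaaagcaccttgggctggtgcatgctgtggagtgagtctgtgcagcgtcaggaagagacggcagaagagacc
Upk3a: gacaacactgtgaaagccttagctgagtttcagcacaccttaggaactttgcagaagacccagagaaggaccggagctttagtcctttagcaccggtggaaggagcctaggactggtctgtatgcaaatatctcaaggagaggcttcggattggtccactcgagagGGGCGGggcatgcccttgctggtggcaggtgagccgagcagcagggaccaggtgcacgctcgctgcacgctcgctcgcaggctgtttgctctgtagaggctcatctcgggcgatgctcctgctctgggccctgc
Upk3b: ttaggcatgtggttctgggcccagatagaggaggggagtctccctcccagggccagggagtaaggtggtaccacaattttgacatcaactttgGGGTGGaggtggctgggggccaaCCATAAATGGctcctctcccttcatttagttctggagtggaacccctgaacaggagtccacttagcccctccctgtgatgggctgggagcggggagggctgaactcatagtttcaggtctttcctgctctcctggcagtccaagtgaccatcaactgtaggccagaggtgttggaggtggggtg

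The motifs were AGATAA for GATA factors, CCACCC for KLF factors, GGGCGG for Sp factors, GGAATG for TEAD factors, AGGTCA for nuclear receptors, TGTTTAC for FOX factors, AACCGGTT for GRHL factors, TGANTCA for the AP-1 complex, TATAAA for the basal machinery, and the CArG box of serum response factor, which was added after the windows had been read. Upk1b held a KLF motif 101 and another 67 bases before the start, and a TEAD motif 178 bases before it. These motifs were present in 29.4% and 14.2% of all 33469 promoter windows. Upk3a held 1 Sp motif, 84 bases before the start, as did 33.1% of all windows. Upk3b held a KLF motif 157 bases and a CArG box 134 bases before the start, the latter found in 1.64% of all windows. The window of Upk1a held none of the 10 motifs. The motifs of GATA factors, nuclear receptors, FOX, GRHL, AP-1 and the basal machinery, found in 11.6%, 16.2%, 3.78%, 0.173%, 7.33% and 14.2% of all windows, were in none of the 4. The GC content of the windows was 60.7% for Upk1a, 55.3% for Upk1b, 58.7% for Upk3a and 56.7% for Upk3b, against a median of 51.7% over all windows.

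The FPKM of the samples summed to between 424961 and 564343, and the sequencing depth behind them is unknown. Markers of urothelium and muscle were found in every sample, but at unlike levels. The 4 superficial urothelial markers Krt20, Psca, Krt8 and Krt18 summed to between 1252 and 3169 FPKM over all samples. Krt20, a small part of this sum, had 37.5 to 90.6 FPKM in normal and 0.383 to 0.940 FPKM in PBOO samples of week 5. The 3 fibroblast markers Pdgfra, Dcn and Lum summed to between 281 and 374 FPKM in normal and between 20.8 and 53.1 FPKM in PBOO samples of week 5. The 4 smooth muscle markers Actg2, Myh11, Des and Cnn1 summed to between 10135 and 12939 FPKM in the normal samples of both weeks, to between 28619 and 55248 FPKM in PBOO at week 4 and to between 576 and 901 FPKM in PBOO at week 5. The 4 leukocyte markers Ptprc, Cd68, Cd3e and S100a8 summed to between 5.99 and 16.7 FPKM in normal and between 83.1 and 236 FPKM in PBOO samples of week 5. The make-up of the tissue thus differed between the groups in these libraries, and its part in the results below was not tested. In bulk tissue, fewer urothelial cells and less RNA per cell cannot be told apart.

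In the normal bladder, 4 of the members were among the most abundant transcripts. At week 4, Upk1a (1599 ± 89.2 FPKM, SD, n = 3) and Upk3a (1582 ± 305 FPKM, SD, n = 3) came first, followed by Upk2 (1325 ± 137 FPKM, SD, n = 3) and Upk1b (645 ± 60.8 FPKM, SD, n = 3). The ranges of Upk3a overlapped those of Upk1a and Upk2, while Upk1b lay below the other 3 in every sample. In the normal samples of week 5 the order was Upk3a (1706 ± 129 FPKM, SD, n = 3), Upk2 (1704 ± 140 FPKM, SD, n = 3), Upk1a (1536 ± 225 FPKM, SD, n = 3), Upk1b (682 ± 37.0 FPKM, SD, n = 3) and Upk3b (70.2 ± 6.19 FPKM, SD, n = 3). The first 3 overlapped, and Upk1b and Upk3b each lay apart. By FPKM, Upk3a ranked between 15 and 20 among all genes in these samples, Upk2 between 16 and 21, Upk1a between 17 and 26, and Upk1b between 73 and 92. In the normal samples of week 4 they ranked lower, with Upk3a between 36 and 70, Upk1a between 49 and 58, Upk2 between 64 and 75, and Upk1b between 119 and 135. The summed uroplakins made up between 0.812% and 1.02% of all FPKM in normal samples at week 4 and between 1.19% and 1.42% at week 5.

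**Figure D1:**
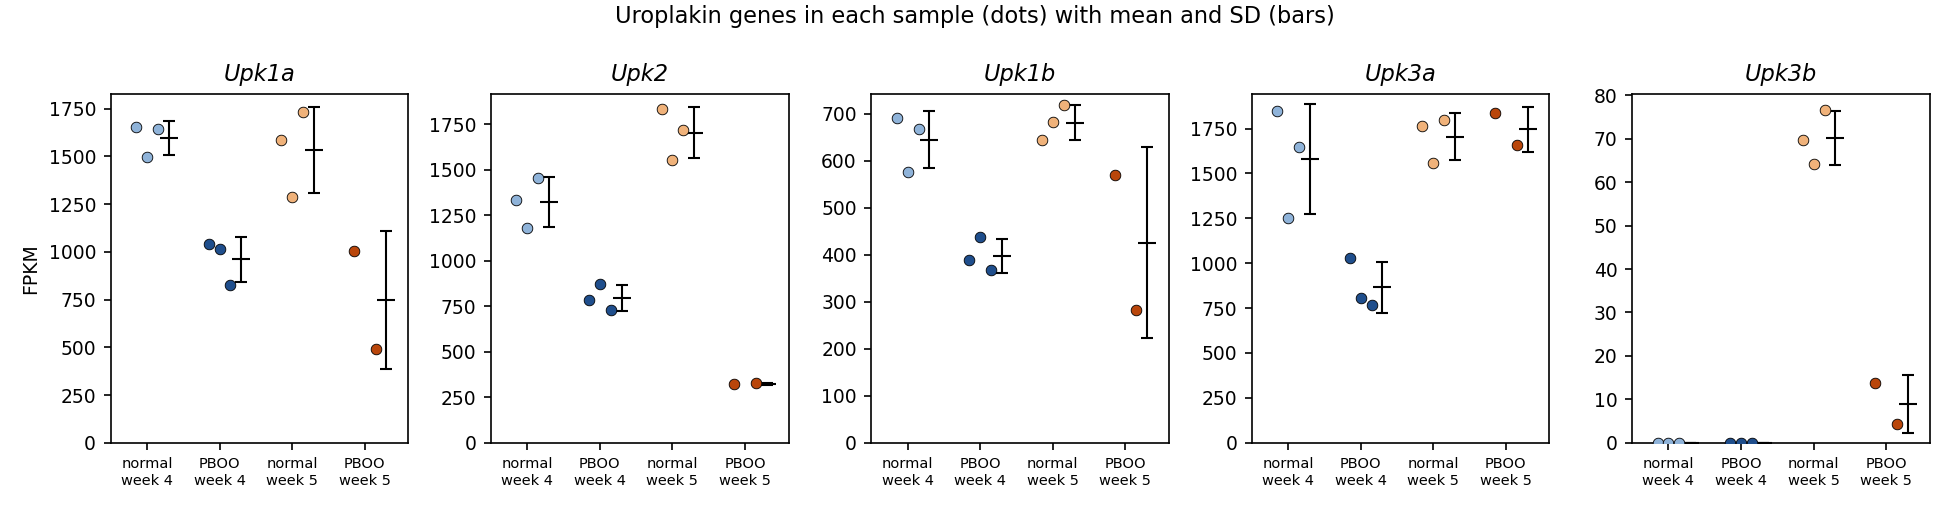
FPKM of the 5 uroplakin genes (vertical axes, starting at 0) in each of the 11 samples (dots) by group, with the mean and SD of the group as bars. At week 4 the 3 PBOO dots lie below all normal dots for Upk1a, Upk2, Upk1b and Upk3a, and at week 5 Upk3a overlaps between the groups while Upk2 and Upk3b are far lower in PBOO.

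The first comparison asked how the transcripts differed between PBOO and normal tissue at week 4. Upk1a, Upk2, Upk1b and Upk3a all fell, to between 54.8% and 61.7% of their normal means. Each had an unadjusted p under 0.05, where 26.2% of the 11320 genes tested were lower at that threshold, and none was lower by 2-fold, as 2.45% of all genes were. Fold changes are log2 fold changes (log2FC) on the log2(FPKM + 0.1) scale with a standard error (SE), from limma fitted to every gene of the week whose mean reached 0.5 FPKM. The log2FC of the 4 genes lay between -0.86 and -0.70, below the median of all genes of -0.25. Adjusted p-values (limma, Benjamini-Hochberg over all genes tested) were 0.0538 to 0.0645, so no member was lower at an adjusted p under 0.05, which 0.177% of all genes were, and the smallest adjusted p of any gene was 0.0478. This side of the threshold was not firm. Without PBOO replicate 1 the adjusted p of the 4 genes lay between 0.0202 and 0.0288 (limma). There 2126 of 11316 genes passed in either direction, against 58 of 11320 in the main fit. With all 11 samples in one fit, where 980 of 11305 genes passed, it was 0.0237 for Upk2 and 0.0303 for Upk3a (limma). It was 0.0741 for Upk1a and 0.0685 for Upk1b in that fit (limma). Other settings raised it for all 4 genes. It lay between 0.183 and 0.202 without PBOO replicate 2 and between 0.216 and 0.222 without normal replicate 3 (limma). After median-ratio scaling it lay between 0.101 and 0.138 (limma).

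Among the tetraspanins, Upk1a had 1655, 1496 and 1646 FPKM in the normal samples and 1039, 1017 and 827 FPKM in the PBOO samples. The groups did not overlap, and the highest PBOO sample stayed well under the lowest normal one. Upk1a had a log2FC of -0.74 (SE 0.14, adjusted p = 0.0538 by limma). For Upk1b, the carrier of Upk3a, the values were 692, 577 and 667 FPKM in normal and 389, 438 and 367 FPKM in PBOO samples. Again every PBOO sample was below every normal sample, with a log2FC of -0.70 (SE 0.13, adjusted p = 0.0538 by limma).

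Of the single-span partners, Upk2 had 1336, 1183 and 1457 FPKM in normal and 787, 870 and 731 FPKM in PBOO samples, a log2FC of -0.73 (SE 0.14, adjusted p = 0.0538 by limma). Upk3a had 1850, 1250 and 1646 FPKM in normal and 1028, 804 and 766 FPKM in PBOO samples, a log2FC of -0.86 (SE 0.20, adjusted p = 0.0645 by limma). Neither gene overlapped between the groups. PBOO samples lay wholly below normal samples in 34.9% of all genes tested at week 4, so 4 of 4 members stood beside a common pattern in the table. After median-ratio scaling, which moved the median of all genes to -0.0054, the log2FC of the 4 genes were between -0.61 and -0.44. All kept an unadjusted p under 0.05 (limma), where 1018 of 11313 genes were lower. After quantile normalization Upk1a (-0.21, limma unadjusted p = 0.158) and Upk2 (-0.27, limma unadjusted p = 0.0850) no longer passed. On that scale 1312 of 11320 genes were lower. Upk3b was listed at 0 in all 6 samples of week 4 and was not tested there.

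The proportions among the 4 genes overlapped between the groups at week 4. Upk1a transcripts were 1.21 ± 0.0719 times as abundant as those of their partner Upk2 in normal samples (SD, n = 3) and 1.21 ± 0.1004 times in PBOO samples (SD, n = 3). The ratio of Upk1b to Upk3a was 0.414 ± 0.0442 in normal and 0.468 ± 0.0842 in PBOO samples (SD, n = 3 each). In neither pair did the partners move apart beyond the spread between samples.

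The same comparison at week 5 gave a different picture for each member. Upk2 fell to 19.0% of its normal mean and Upk3b to 12.9%, Upk1a fell to 48.8%, Upk1b was at 62.5%, and Upk3a was at 102% of normal. At an unadjusted p under 0.05, 4 of 5 members were lower and none was higher, where 18.8% of the 13685 genes tested were lower. At a 2-fold change as well, Upk1a, Upk2 and Upk3b were lower, against 12.6% of all genes, and at 4-fold Upk2 and Upk3b, against 6.88%. With adjusted p-values (limma), Upk2 and Upk3b were lower, against 14.5% of all genes. With all 11 samples in one fit, which could not test Upk3b, Upk1a (adjusted p = 0.00876 by limma) and Upk1b (adjusted p = 0.0322 by limma) passed as well. There 4008 of 10922 genes passed in either direction. The median log2FC over all genes tested was 0.12.

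Upk2 had 1834, 1557 and 1721 FPKM in the normal samples and 321 and 328 FPKM in the PBOO samples of week 5. The PBOO samples were nearly equal to each other and both far below the normal range. Upk2 had a log2FC of -2.39 (SE 0.16, adjusted p = 0.000532 by limma). Upk1a, the tetraspanin that pairs with it, had 1586, 1290 and 1732 FPKM in normal and 1005 and 493 FPKM in PBOO samples. The groups did not overlap, a pattern that 25% of all genes tested showed in this direction, but the PBOO samples differed from each other by 2.04 times. The log2FC was -1.11 (SE 0.34, unadjusted p = 0.0178 and adjusted p = 0.0566 by limma). It was -0.60 without PBOO replicate 2 and -1.63 without PBOO replicate 1, and lost its unadjusted call without normal replicate 1 or 3 (limma unadjusted p = 0.0511 and 0.0568).

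Upk1b had 644, 683 and 718 FPKM in normal and 570 and 283 FPKM in PBOO samples of week 5. Every PBOO sample was below the normal range, by a wide margin only in replicate 2. The log2FC was -0.76 (SE 0.31, unadjusted p = 0.0496 and adjusted p = 0.115 by limma). It was -0.26 without PBOO replicate 2 (unadjusted p = 0.108 by limma) and -1.27 without PBOO replicate 1, and without any 1 of the normal samples its unadjusted p rose to between 0.0901 and 0.117. Upk3a had 1764, 1557 and 1796 FPKM in normal and 1835 and 1656 FPKM in PBOO samples, so that the groups overlapped. Its log2FC was 0.034, with a 95% interval from -0.42 to 0.48 (adjusted p = 0.901 by limma), and its sign changed with the scaling of the samples. Upk3a ranked 11 and 16 among all genes in the 2 PBOO samples.

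Upk3b had 69.6, 64.2 and 76.6 FPKM in normal and 13.7 and 4.30 FPKM in PBOO samples of week 5. Both PBOO values were below the normal range, and the log2FC was -3.17 (SE 0.47, adjusted p = 0.00621 by limma). Its size rested on which PBOO sample was used, with -3.99 without replicate 1 and -2.34 without replicate 2 (adjusted p = 0.00105 and 0.00123 by limma). The zeros of week 4 cannot be read as absence: of the 1007 genes with a normal week 5 mean at least that of Upk3b, 99 were listed at 0 in every week 4 sample. Upk3bl, a uroplakin 3B-like gene named here after its values were seen, was also listed at 0 in all week 4 samples. At week 5 it had 16.1, 20.9 and 14.3 FPKM in normal and 257 and 79.2 FPKM in PBOO samples. It rose where Upk3b fell, with a log2FC of 3.07 (SE 0.50, adjusted p = 0.00845 by limma). Reads shared between these related genes cannot be told apart in FPKM.

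**Figure D2:**
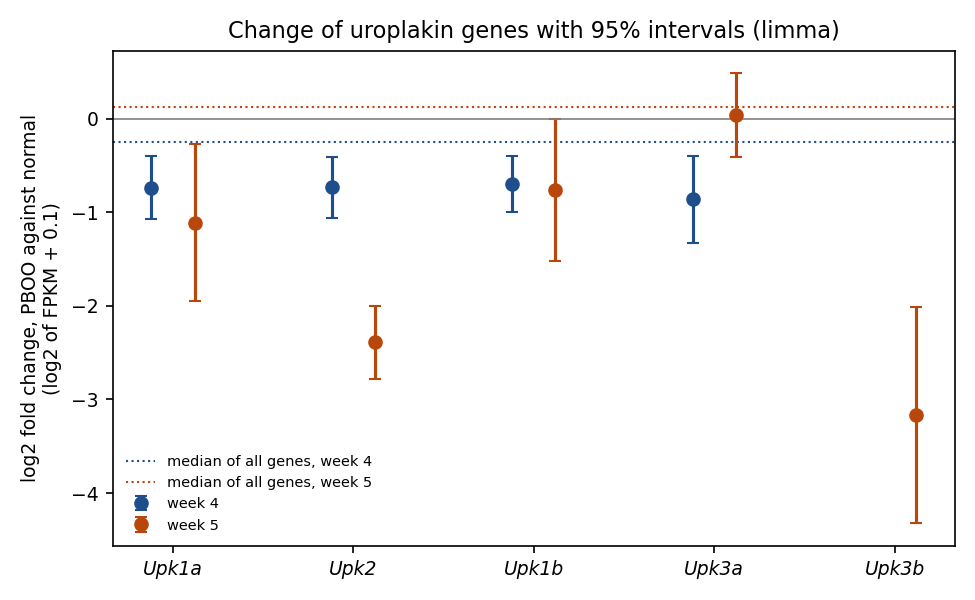
log2 fold change of PBOO against normal (vertical axis) for each uroplakin gene at week 4 and week 5, with the 95% interval from limma and the median of all genes as dotted lines. The 4 genes tested at week 4 lie between -0.86 and -0.70, while at week 5 the members spread from -3.17 for Upk3b to 0.034 for Upk3a.

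The proportions of the members therefore differed between the groups at week 5. Upk3a made up 30.0 ± 0.262% of the summed uroplakin FPKM in normal samples (SD, n = 3) and 54.5 ± 7.71% in PBOO samples (SD, n = 2). Over the same groups Upk2 went from 29.9 ± 1.34% (SD, n = 3) to 10.2 ± 2.33% (SD, n = 2), and neither share overlapped. Upk3a was 1.002 ± 0.0411 times as abundant as Upk2 in normal samples (SD, n = 3) and 5.05 and 5.72 times in the 2 PBOO samples. The ratio of Upk1a to its partner Upk2 was between 0.829 and 1.006 in normal samples, and 1.505 and 3.13 in PBOO samples. The ratio of Upk1b to Upk3a was between 0.365 and 0.438 in normal samples and was lower in PBOO, at 0.310 and 0.171. For Upk1b to its minor partner Upk3b it was between 9.25 and 10.6 in normal samples, and 41.5 and 65.8 in PBOO samples. The tetraspanins kept closer to each other, with Upk1a to Upk1b at 2.25 ± 0.318 in normal samples (SD, n = 3, range 1.89 to 2.46). The PBOO samples, at 1.75 and 1.76, still lay below that range.

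**Figure D3:**
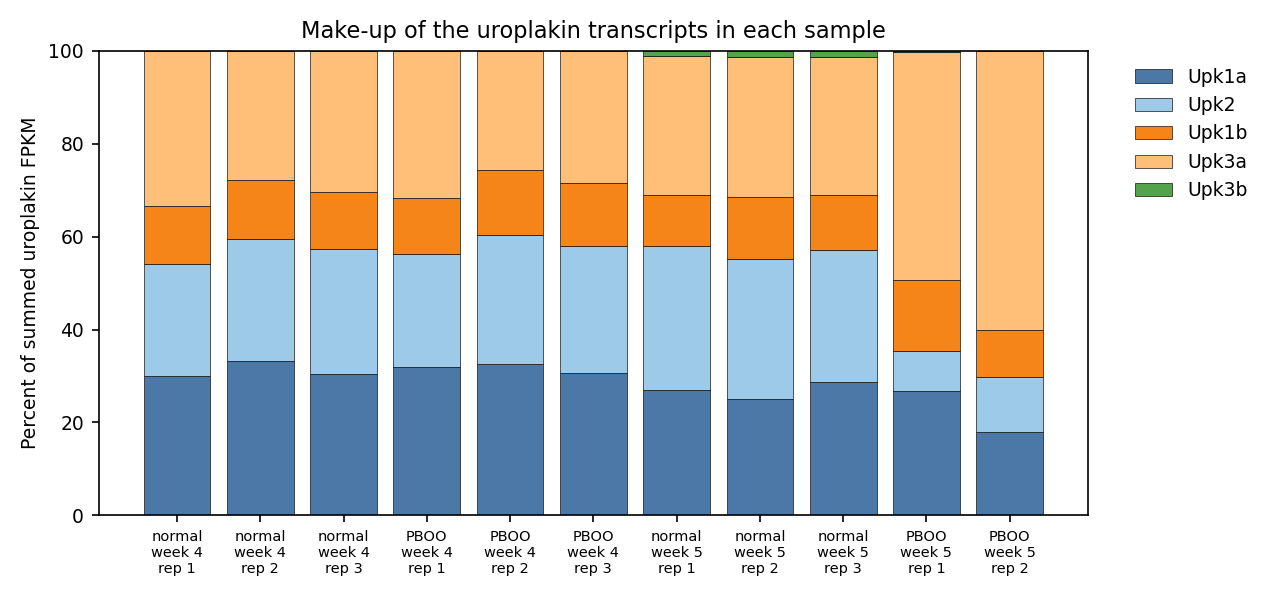
Share of each uroplakin gene in the summed uroplakin FPKM (vertical axis, percent) for each of the 11 samples (bars). The bars of week 4 are alike in normal and PBOO samples, while in both PBOO samples of week 5 Upk3a takes about 49.0% and 59.9% and Upk2 8.57% and 11.9%.

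Whether the effect of PBOO differed between the weeks was tested in a fit of all 11 samples, in which Upk3b was left out because it was listed at 0 at week 4. All columns of week 4 carry the name Input, and those of week 5 do not. In every sample of the week, 4871 genes were listed at 0 at week 4 and 403 at week 5. Time since obstruction and any other difference between these sets of samples cannot be told apart. Upk2 was reduced more at week 5 than at week 4, by a further -1.66 on the log2 scale (SE 0.20, adjusted p = 0.000224 by limma), where 15.7% of the 11296 genes tested differed in this direction at an unadjusted p under 0.05. For Upk3a the difference was 0.90 (SE 0.27, adjusted p = 0.0245 by limma), towards higher values at week 5, where 34.6% of all genes differed and the median difference of all genes was 0.35. At an adjusted p under 0.05 (limma), 4516 of the 11296 genes differed in either direction. After median-ratio scaling the difference of Upk3a was 0.61 (limma unadjusted p = 0.0439, adjusted p = 0.103). The differences of Upk1a (-0.37, 95% interval -1.17 to 0.42, adjusted p = 0.428 by limma) and Upk1b (-0.067, 95% interval -0.79 to 0.66, adjusted p = 0.888 by limma) did not pass, and both rested on the PBOO samples of week 5. Without replicate 2 they were 0.14 and 0.44 (adjusted p = 0.685 and 0.105 by limma), and without replicate 1 they were -0.89 and -0.57 (adjusted p = 0.0209 and 0.0400 by limma).

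Between the normal samples of the weeks, Upk2 was 0.36 higher at week 5 on the log2 scale (SE 0.13, adjusted p = 0.0384 by limma), where 8.52% of 11296 genes were higher at an unadjusted p under 0.05 and the median of all genes was -0.52. Upk1a, Upk1b and Upk3a had log2 differences of -0.067, 0.082 and 0.12, none of which passed. These values depended on the scaling: after median-ratio scaling the differences were 0.45 for Upk1a, 0.60 for Upk1b, 0.89 for Upk2 and 0.65 for Upk3a. Week and any other difference between these sets of samples cannot be told apart.

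To set the members beside the epithelium as a whole, the mean log2(FPKM + 0.1) of Epcam, Cdh1, Esrp1, Cldn7 and Rab25, genes of epithelial cells in general, was taken in each sample. This measure was added after the values had been seen. The marker mean was 7.04, 6.54 and 6.60 in normal and 6.39, 5.89 and 5.59 in PBOO samples of week 4, a difference of -0.77 between the group means, beyond that of Upk1a, Upk1b and Upk2 and short of that of Upk3a. Relative to it, the log2 differences of PBOO and normal at week 4 were 0.030 for Upk1a, 0.074 for Upk1b, 0.037 for Upk2 and -0.092 for Upk3a. None passed when all genes were refitted on this scale (limma unadjusted p = 0.730 to 0.915), and the groups overlapped for each gene. On this scale the median of all genes was 0.51, above all 4 members. At an unadjusted p under 0.05 (limma), 46 of 11338 genes were lower and 3531 higher. The SE of the 4 genes was 0.26 to 0.30, against 0.13 to 0.20 without this scaling. These p-values therefore do not show that the members kept pace with the epithelium.

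At week 5 the marker mean moved the other way, from 6.56, 6.40 and 6.63 in normal to 7.52 and 7.16 in PBOO samples. Relative to it, all 5 uroplakins were lower in both PBOO samples than in any normal sample. The log2 differences were -0.78 for Upk3a (SE 0.27, adjusted p = 0.0486 by limma), -1.58 for Upk1b (SE 0.26, adjusted p = 0.00392 by limma), -1.93 for Upk1a (SE 0.29, adjusted p = 0.00267 by limma), -3.20 for Upk2 (SE 0.24, adjusted p = 0.000188 by limma) and -3.97 for Upk3b (SE 0.35, adjusted p = 0.000347 by limma). On this scale 7222 of 13752 genes were lower at an unadjusted p under 0.05 (limma), so a lower value was common in the table. The share of all genes without overlap was not taken on this scale, so the lack of overlap cannot be read as particular to the members. The median of all genes was -0.68, so the value of Upk3a lay close to that of the table as a whole.

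**Figure D4:**
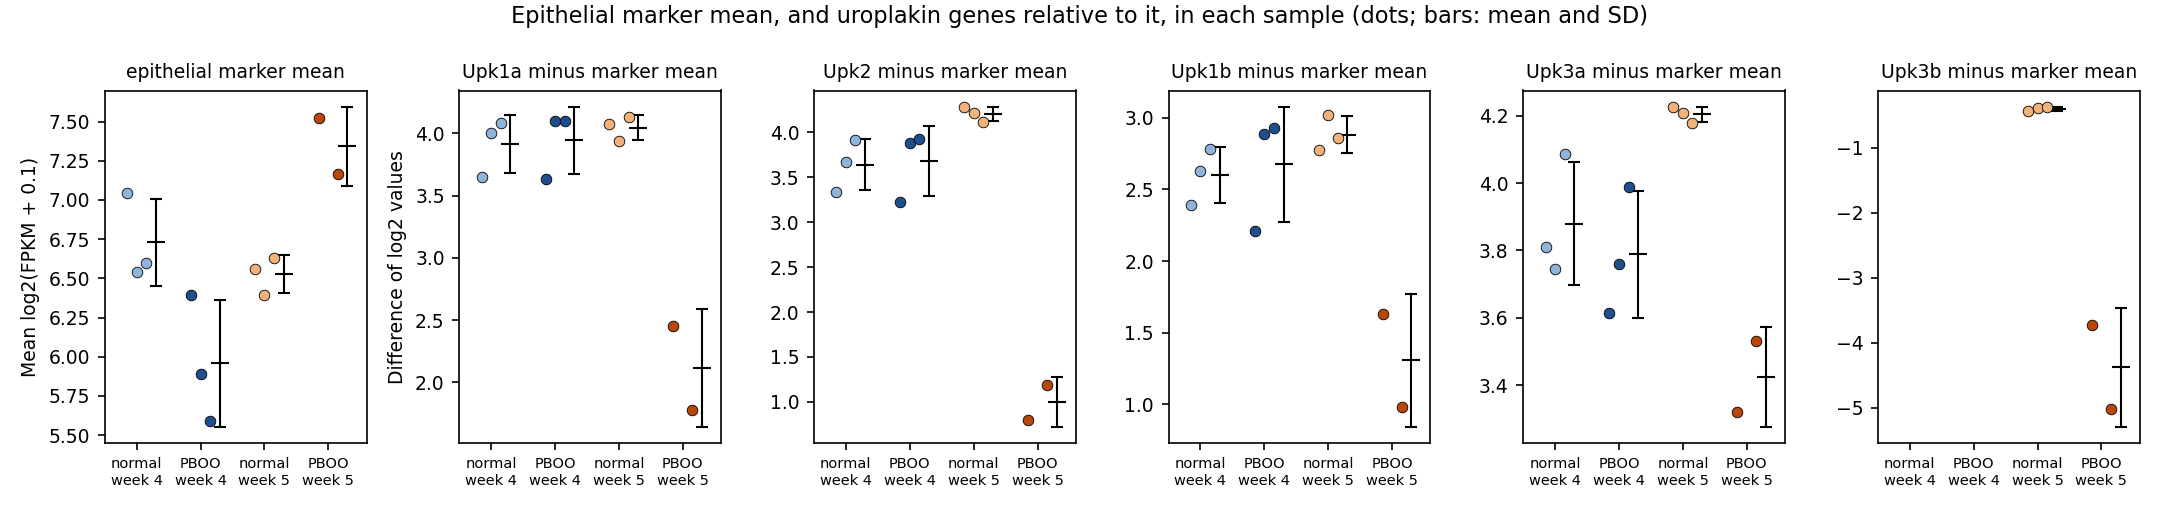
Mean log2(FPKM + 0.1) of 5 epithelial markers (first panel) and the difference of each uroplakin gene from it (other panels, log2 units) in each sample (dots) by group, with mean and SD as bars. At week 4 the groups overlap in every uroplakin panel that holds values. At week 5 both PBOO samples lie below all normal samples in each uroplakin panel, on a scale where the median of all genes was -0.68.

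Other genes of the urothelium were read from lists, each described by its counts at an unadjusted p under 0.05 in limma and by its median log2FC. Among all genes, 5.76% were higher at week 4 and 24.6% at week 5 at this threshold, beside the shares that were lower. The median-ratio scaling left fewer urothelial calls at week 4, and its counts stand beside the lists where they differed by over 1.5 times. After it, 1018 of 11313 genes were lower and 1321 higher at week 4, against 2969 and 652 of 11320 without it. At week 5, 2954 of 13666 genes were lower and 2664 higher after it. Of the superficial urothelial genes, 9 of 11 tested were lower and none was higher at week 4 (median -0.71; 3 lower after median-ratio scaling), and 3 of 13 were lower and 6 higher at week 5 (median 0.61). Krt20, the keratin of umbrella cells, had 45.1 ± 7.09 FPKM in normal and 22.4 ± 15.8 FPKM in PBOO samples of week 4 (SD, n = 3 each), with groups that overlapped (log2FC -1.21, SE 0.43, adjusted p = 0.116 by limma). The claudins Cldn4 (-1.03) and Cldn8 (-0.96) and the keratin Krt19 (-0.98) followed it at week 4. At week 5 Krt20 had 66.9 ± 27.03 FPKM in normal samples (SD, n = 3) and 0.940 and 0.383 FPKM in the PBOO samples, the steepest loss in the list (log2FC -6.47, SE 0.48, adjusted p = 0.000760 by limma). Krt18, a keratin of simple and superficial epithelium, was also lower at week 5, with 949 ± 158 FPKM in normal (SD, n = 3) and 333 ± 24.1 FPKM in PBOO samples (SD, n = 2, adjusted p = 0.00429 by limma). Cldn8, a claudin of tight junctions, was the other gene of the list that fell (log2FC -1.12, adjusted p = 0.0474 by limma). Other keratins of the list rose at week 5. Krt19 had 888 ± 313 FPKM in normal (SD, n = 3) and 2701 and 3002 FPKM in PBOO samples (log2FC 1.75, adjusted p = 0.0172 by limma), and Krt7 had a log2FC of 0.77 (adjusted p = 0.0723 by limma). The tight junction genes Tjp3 (log2FC 2.46, adjusted p = 0.000689 by limma) and Cldn4 (1.56, adjusted p = 0.0131 by limma), the membrane gene Prom1 (4.82, adjusted p = 0.00327 by limma) and the urea transporter Slc14a1 (0.61, adjusted p = 0.0909 by limma) were also higher. Krt7 was listed at 0 throughout week 4.

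Genes of plaque assembly and vesicle traffic followed the uroplakins in part. At week 4, 6 of 11 tested were lower and none was higher (median -0.51; 4 lower after median-ratio scaling), among them Rab17 (log2FC -1.07, adjusted p = 0.101 by limma), Rab27b (log2FC -0.81, adjusted p = 0.0810 by limma), a small GTPase of fusiform vesicles, Mal (-0.78, adjusted p = 0.0883 by limma), which helps to insert them in the apical membrane, and the fusion protein Vamp8 (-0.65, adjusted p = 0.0535 by limma). At week 5, 1 of 14 was lower and 5 were higher (median 0.058), and after median-ratio scaling 4 were lower and 5 higher (median -0.045). The lower one was Snx31, a sorting nexin that binds uroplakins, with 382 ± 8.01 FPKM in normal (SD, n = 3) and 118 ± 23.7 FPKM in PBOO samples (SD, n = 2; log2FC -1.70, SE 0.16, adjusted p = 0.00160 by limma). The 5 higher ones were Rab17, an epithelial trafficking GTPase (log2FC 2.02, adjusted p = 0.00144 by limma), Rab13 (1.27), Exph5 (1.22), Vamp8 (0.75) and Rab8a (0.43). Snx31, Sytl2 and Exph5 were listed at 0 in all week 4 samples, as Upk3b was.

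Of 18 genes in the list of urothelial regulators, 7 of 17 tested were lower and none was higher at week 4 (median -0.76; 2 lower after median-ratio scaling), and 1 of 18, Grhl3 (log2FC -1.09, adjusted p = 0.0769 by limma), was lower and 11 were higher at week 5 (median 0.86). The list held transcription factors and Fabp4, a lipid carrier known as a target of PPAR gamma, which had a log2FC of -1.01 at week 4 (adjusted p = 0.107 by limma). Elf3, an epithelial ETS factor, was lower at week 4 (-0.81, adjusted p = 0.122 by limma) and higher at week 5 (2.07, adjusted p = 0.00196 by limma). Foxa1, a factor of luminal epithelium (-0.85, adjusted p = 0.125 by limma), and the ETS factor Ehf (-0.88, adjusted p = 0.140 by limma) were lower at week 4. Tfap2a (3.21, adjusted p = 0.0434 by limma), Irf1 (1.83, adjusted p = 0.00529 by limma) and Tfap2c (1.70, adjusted p = 0.00441 by limma) rose at week 5.

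Basal genes were read next. Of 13 basal genes tested at week 4, 6 were lower and none was higher (median -0.64; 2 lower after median-ratio scaling), including Tp63, the master regulator of basal cells (log2FC -1.09, adjusted p = 0.0503 by limma), Krt15 (-1.06), Shh (-0.81) and the integrin Itga6 (-0.71). Of 14 at week 5, 11 were higher and 1, the nerve growth factor receptor Ngfr, was lower (median 0.85; log2FC of Ngfr -3.38). Krt5, the basal keratin, had 134 ± 43.1 FPKM in normal samples (SD, n = 3) and 780 and 2859 FPKM in the PBOO samples (log2FC 3.52, SE 0.58, adjusted p = 0.00893 by limma). Krt17 (log2FC 3.73, adjusted p = 0.0264 by limma) and Krt14 (3.19, adjusted p = 0.0806 by limma) were higher too, while Tp63 itself had 8.83 ± 1.65 FPKM in normal (SD, n = 3) and 8.74 ± 3.42 FPKM in PBOO samples (SD, n = 2; log2FC -0.054, adjusted p = 0.903 by limma). In the squamous list, 2 of 7, Fabp5 and Sprr1a, were lower at week 4 (1 lower and 1 higher after median-ratio scaling) and 6 of 8 were higher at week 5 (median 1.48), led by Krt16 (log2FC 4.13), Lgals7 (4.11), the cornified envelope gene Ivl (2.34) and Krt1 (2.06). In the general epithelial list, 13 of 19 were lower at week 4 (median -0.73; 8 lower after median-ratio scaling) and 14 of 21 were higher at week 5 (median 0.64), with no gene in the other direction in either week. Epcam (log2FC -0.97), Prss8 (-0.94) and Rab25 (-0.84) were among those lower at week 4, and Elf3, Pkp3 (1.79), Cldn7 (1.69) and St14 (0.996) led at week 5. Lama3 of the basal, Dsp of the epithelial and Lor of the squamous list were listed at 0 throughout week 4.

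Mesothelial genes were checked because Upk3b and Upk1b are expressed there too. The 5 markers Msln, Wt1, Lrrn4, Nkain4 and Bnc1 summed to between 43.2 and 55.7 FPKM in normal and to 32.5 and 170 FPKM in PBOO samples of week 5, nearly all of it Msln, while Wt1, Lrrn4, Nkain4 and Bnc1 were each under 0.5 FPKM in every sample of that week. At week 4 they summed to between 11.2 and 28.2 FPKM, with Lrrn4 and Muc16, another gene of the list, listed at 0. Of 7 mesothelial genes tested at week 4 none passed, and of 3 at week 5 only Cldn15 was higher (log2FC 0.86, adjusted p = 0.0624 by limma). The other genes of the list were too low to be tested at week 5. Of these, Gpm6a (mean 0.160 FPKM in normal, 0 in PBOO), Nkain4 (0.135 and 0) and Pkhd1l1 (0.171 and 0.0144) were lower in PBOO. So were Lrrn4 (0.109 and 0.0165) and Wt1 (0.0517 and 0.0077), while Bnc1 (0 and 0.256) and Muc16 (0.0065 and 0.0763) were higher. These values lie near 0.

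The tetraspanin family outside the uroplakins did not move as one. At week 4, 8 of 25 tested were lower and 1, Cd81, was higher (median -0.15; 4 lower and 4 higher after median-ratio scaling), led by Tspan7 (log2FC -0.90), Tspan13 (-0.81), Tspan12 (-0.73) and Tspan8 (-0.61), and Tspan32 was listed at 0. At week 5, 8 were lower and 5, Cd37, Cd53, Tspan1, Tspan8 and Tspan12, were higher (median -0.20), from Tspan2 at -4.13 (adjusted p = 0.000178 by limma) to Tspan1 at 5.79 (adjusted p = 0.0152 by limma), with Tspan11 at -3.11 and Tspan18 at -3.06. For comparison, smooth muscle genes had 9 of 12 higher at week 4 (median 0.75), led by Actg2, Cnn1, Des and Synpo2, and 12 of 12 lower at week 5 (median -4.34), led by Synpo2, Mylk, Lmod1 and Acta2. None of 10 fibroblast genes passed at week 4 (median 0.60; 1 higher after median-ratio scaling) and 9 were lower at week 5 (median -3.46), led by Col1a2, Col1a1, Dpt and Col3a1. Of 11 leukocyte genes none passed at week 4 (median 0.16) and 10 were higher at week 5 (median 2.97), led by S100a9, S100a8, Cd68 and Cd3d, while Cd79a was listed at 0 throughout week 4.

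**Figure D5:**
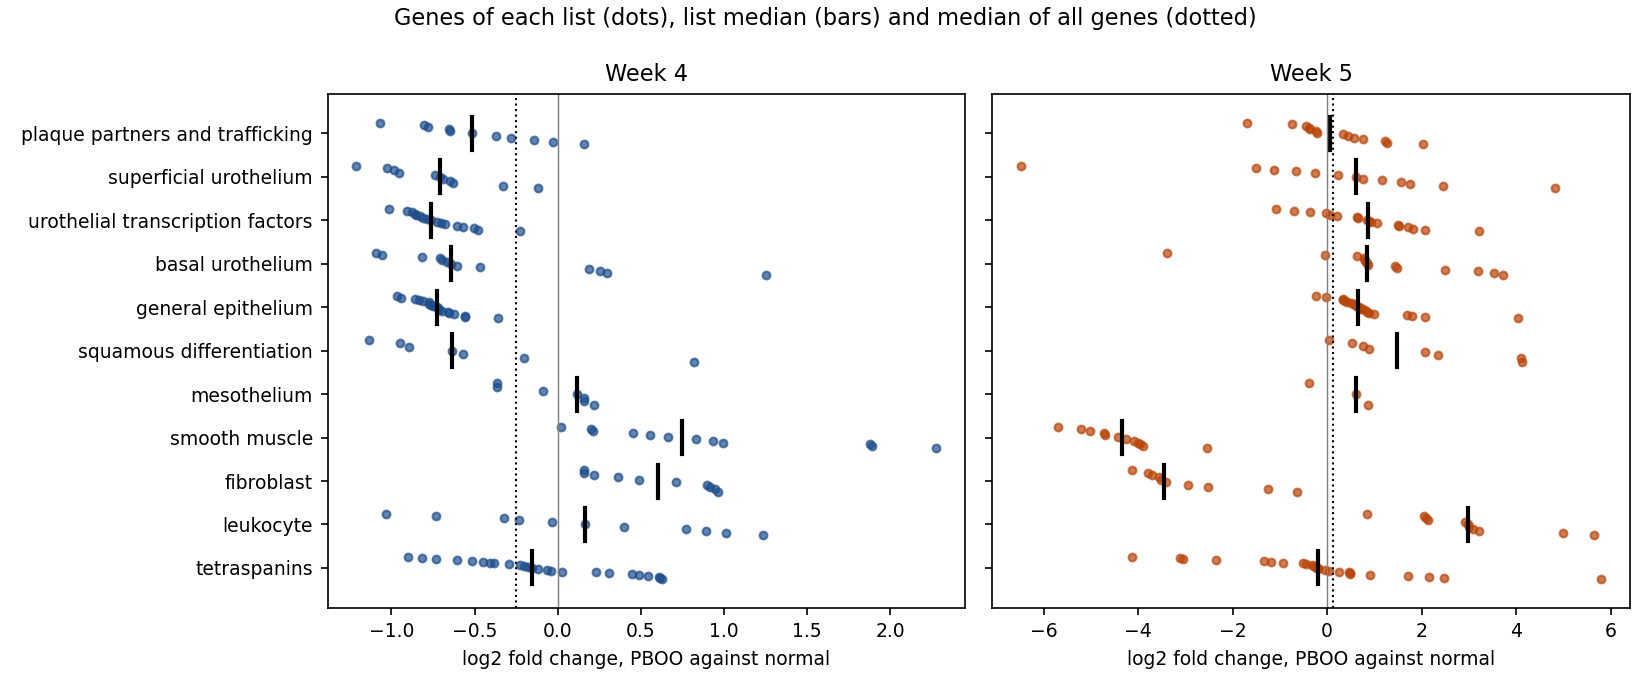
log2 fold change of PBOO against normal (horizontal axes) for the tested genes of 11 lists (dots) at week 4 (left) and week 5 (right), with the median of each list as a bar and the median of all genes as a dotted line. The urothelial and epithelial medians lie below that of all genes at week 4, and at week 5 they lie above it except for the trafficking list (0.058).

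Among 9966 genes whose mean reached 1 FPKM in both weeks, those most like the mean of Upk1a, Upk1b, Upk2 and Upk3a were found by Pearson's r over the 11 samples, after the mean of each week was subtracted. The r values describe these samples only, since the points share their groups and libraries. The 5 highest were Ttc38 (r = 0.979), the lactate dehydrogenase subunit Ldhb (r = 0.979), Sdr42e1 (r = 0.974), the sulfotransferase Chst7 (r = 0.972) and Fbxo21 (r = 0.968). Chst7 was also the gene most like Upk1a (r = 0.996), Gdpd3 was most like Upk2 (r = 0.994), Bsdc1 most like Upk1b (r = 0.977), and Pnpla2, a triglyceride lipase, most like Upk3a (r = 0.981). Among the members, Upk1a and Upk1b were the most alike (r = 0.962) and Upk2 and Upk3a the least (r = 0.283).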

How the data were processed

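Bladder RNA of 11 rat samples was sequenced as paired TruSeq libraries on a HiSeq4000. The authors trimmed reads with SeqPrep and Sickle, mapped them with HISAT2, assembled transcripts with StringTie and deposited 1 table with FPKM values from featureCounts for 18507 genes. The labels name mm10, a mouse build, for these rat samples; which annotation was used, and whether counting used strand, is not given in the sources used here. The authors tested counts with DESeq2, which FPKM does not allow, and read depth is unknown.

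Columns were assigned to samples by the descriptions in the labels. Within each week, log2(FPKM + 0.1) of all genes that reached a mean of 0.5 FPKM was fitted with limma 3.58.1 (R 4.3.3; eBayes with a trend), without further scaling. Differences between weeks were fitted over all 11 samples. A gene was called at an unadjusted p under 0.05. This is looser than the rule in the study's methods, which required both an adjusted p under 0.05 and at least 2-fold. Counts with a 2-fold or 4-fold change or an adjusted p under 0.05 stand beside these calls. On simulated data with 200 genes changed by 4-fold, the week 4 fit over 12414 genes found 194 at an unadjusted and 169 at an adjusted p under 0.05, and the week 5 fit over 12394 genes found 192 and 149. The planted changes were larger than those of the members at week 4, so this recovery does not extend to changes of that size. Members and lists were chosen with earlier results of these data known. From each list up to 4 called genes with the largest absolute log2 fold change in a week are named, with markers and genes listed at 0; Cd81 at week 4 and Krt18, Krt7, Cldn4, Cldn8, Slc14a1, Vamp8, Rab8a, Grhl3, Tp63, Cd37, Cd53, Tspan8 and Tspan12 at week 5 were added after their values were seen. The values of 1 gene that this rule selects are not reported here. Tables and figures were made with Python 3.11.15, pandas 2.3.3, numpy 2.4.6 and matplotlib 3.10.9.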

Additional observations from a re-analysis of the deposited data

Results flagged for a closer look

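A pair of members had effects of PBOO that differed between the weeks in a test of the difference itself, fitted over all 11 samples. At an adjusted p under 0.05 (limma), so did 4516 of the 11296 genes tested, so such a difference was common in the table. Week and any other difference between the sets of samples cannot be told apart. For Upk2 the difference (week 5 minus week 4) was -1.66 on the log2 scale (adjusted p = 0.000224 by limma). PBOO was lower than normal in 3 of 3 samples at week 4 and in 2 of 2 at week 5, and the difference ranged from -2.35 to -1.65 over 7 other settings, with limma adjusted p from 2.94e-05 to 0.00908. For Upk3a the difference was 0.90 (adjusted p = 0.0245 by limma), with PBOO lower in 3 of 3 samples at week 4 and within the normal range or above it at week 5. It ranged from 0.60 to 0.94 over the same settings, with limma adjusted p from 0.0241 to 0.103, and from 0.77 to 1.06 without 1 sample (limma adjusted p from 0.0101 to 0.0588). No group held 4 or more samples, so no test for outlying samples was made.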

How the results depend on the processing

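Direction and side of the threshold held in 248 of 291 values of single members under other settings. At week 4 the number of lower uroplakins was 4 under all planned settings except quantile normalization (2), and 4 without any 1 sample. At week 5 it was 4 or 3 with all samples and from 2 to 4 without 1 sample. Among all genes with a 2-fold change at week 4, 277 were lower, and 136 with a pseudocount of 1, 117 after median-ratio scaling, 148 after quantile normalization, and 180 to 637 without 1 sample. The 278 higher ones became 172 to 387 without 1 sample; 412 were higher after median-ratio scaling. At week 5, 1554 to 1916 genes were lower and 1081 to 1899 higher without 1 sample.

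Scaling to the 5 epithelial markers, added after the data were seen, left no lower uroplakin at week 4 and gave Upk1a 0.030, Upk1b 0.074 and Upk2 0.037, with 27 genes lower and 1196 higher by 2-fold. At week 5 it gave Upk3a -0.78, with 4056 genes lower and 446 higher. Upk3a at week 5 was also below 0 after median-ratio scaling (-0.069) and scaling to equal totals (-0.037), and between -0.040 and 0.11 without 1 sample.

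For the difference between weeks, 1 uroplakin was lower and 1 higher; quantile normalization gave 2 lower, and leaving out 1 sample gave 1 to 3 lower and 1 to 2 higher, with Upk1a from -0.89 to 0.14 and Upk1b from -0.57 to 0.44. Between normal samples, 1 uroplakin was higher at an unadjusted p under 0.05 (limma), as were 962 of 11296 genes. After median-ratio scaling 3 were (Upk1a 0.45), beside 3031 of 11273 genes. After quantile normalization 4 were (Upk1a 0.71), beside 1504 of 11296 genes. Without 1 sample 0 to 1 were, with Upk1a from -0.16 to 0.053 and Upk3a from -0.036 to 0.25. The cause was not tested, except that these settings rescale or remove samples.

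The replicate numbers repeat across groups, but only 2 of the 3 same-numbered pairs of week 4 had a correlation of deviations over 0.1 (0.154, -0.024 and 0.232), and PBOO replicate 2 correlated best with normal replicate 1 (0.094), so the numbers were not taken as pairs. With the replicate block, 4 uroplakins were lower at week 4 at an unadjusted p under 0.05 (limma), beside 3269 of 11320 genes. At week 5, 3 uroplakins were lower, beside 2246 of 13685 genes. With a 2-fold change as well, 292 genes were lower and 305 higher at week 4. Between normal samples the block left 0 higher, with Upk1a at 0.031 and Upk3a at -0.051. Where 1 PBOO sample of week 5 is left, it is assumed to vary like the other groups. With 2 or 3 samples a group, a p above 0.05 does not show that a gene did not change.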
